A study of Mus musculus with 214 samples.

Results

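Nitrogen disposal and glucose production in the liver were followed here through 9 enzymes of the periportal hepatocyte, read in NDMA-treated and Saline-treated mice of both genotypes. They are set by gene symbol: the urea cycle enzymes Cps1, Otc, Ass1 and Asl, the gluconeogenic enzymes Pck1 and G6pc, and the amino acid-degrading enzymes Hal, Sds and Gls2. All 9 were listed in both expression tables, among 18647 genes for WT and 19540 genes for Mgmt-/-, and all 9 passed the filter on low values in every comparison.

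NDMA (N-nitrosodimethylamine) is a methylating liver carcinogen that becomes reactive only after oxidation by cytochrome P450, chiefly Cyp2e1 in pericentral hepatocytes. Mgmt encodes the methyltransferase that removes methyl groups from the O6 position of guanine. All mice were C57BL6 animals carrying RaDR+/+;GPT+/+, reporter alleles that the controls shared, and were either WT at Mgmt or lacked the gene in every cell (Mgmt-/-). NDMA was injected into the peritoneum at 3.5 mg/kg on postnatal day 8 and at 7 mg/kg on postnatal day 15, and control mice received Saline on the same days. Liver was collected 1, 2 or 5 days (ages P16, P17 and P20) or 10 weeks or 10 months after the last injection.

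From the first collection to the last, the WT groups held 21, 8, 7, 8 and 10 Saline mice and 26, 8, 8, 8 and 13 NDMA mice. The Mgmt-/- groups held 12, 7, 6, 8 and 12 Saline mice and 12, 8, 8, 8 and 13 NDMA mice. Both sexes were used. In WT livers at Day 2, Day 5 and Week 10, males came from the batch labelled 200710Eng and females from 200724Eng, which leaves sex confounded with batch: the pair cannot be told apart. Treatment was assigned by litter and the labels give no litter, so every p-value below treats each mouse as independent. The knockout was visible in the transcript: Mgmt itself measured 13.0 at the lowest, 45.8 at the median and 130.0 at the highest over 117 WT livers, against 0, 1.15 and 9.67 over 94 Mgmt-/- livers, 30 of which were at 0.

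Each value is a count of transcript 3′ ends in whole liver, divided by a size factor for its library (normalized count), and each genotype was normalized on its own. A library held a median of 1700411 reads in WT (150038 to 4791649) and 2306713.5 in Mgmt-/- (713584 to 7740710). In whole tissue, fewer cells of a type and less RNA per cell cannot be told apart. A gene was called when its Benjamini-Hochberg adjusted p from limma, with sex and batch as terms, was under 0.05 and its difference exceeded 0.58 on the log2(value + 1) scale. Log2 differences below are NDMA minus Saline on that scale, ± standard error.

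Several libraries stood apart before any comparison. Of the Mgmt-/- Saline mice at Day 5, 2 had over 1000 normalized counts of the kidney androgen-regulated gene Kap (6147 and 7562, against at most 13.9 in the other 94 Mgmt-/- libraries) and were left out. In these libraries Cps1 read 23.6 and 4.90, Otc 7.39 and 3.81, and Hal 3.17 and 0, far under the lowest of the 6 retained Saline mice of that day (3459.5, 1353 and 544). Pck1 (1281 and 1578) and G6pc (748 and 823) lay within the range of those 6, and Ass1 (2015 and 1907) lay under their lowest (3138). Ass1, Pck1 and G6pc are enzymes that the kidney also makes. In WT, 4 NDMA libraries held under 300000 reads, 1 each at Day 2, Day 5, Week 10 and Month 10. In the WT NDMA group at Day 1, 2 libraries had sex-linked transcripts that went against their labels. In the retained libraries the summed level of 8 hepatocyte markers was never under 109539 normalized counts, and none of the 8 was at 0 throughout a group.

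The urea cycle turns ammonia from amino acid breakdown into urea. Cps1 and Otc work inside the mitochondrion and make citrulline, which Ass1 and Asl carry further in the cytosol. Pck1 and G6pc catalyse the first committed and the last step of glucose production from lactate and amino acids. These pathways are concentrated in hepatocytes around the portal vein, where blood from the gut enters the lobule, while glutamine synthesis (Glul) and most drug-metabolising cytochromes P450 lie around the central vein. Glucagon, acting through cAMP, and glucocorticoids raise the transcription of many of these enzymes, and insulin lowers Pck1 and G6pc.

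In the GENCODE annotation of GRCm38, all 9 are protein-coding genes: Cps1 at chr1:67123026-67231259 (+), Otc at chrX:10252305-10321024 (+), Ass1 at chr2:31470207-31520672 (+), Asl at chr5:130011258-130029247 (-), Pck1 at chr2:173153048-173159273 (+), G6pc at chr11:101367561-101377903 (+), Hal at chr10:93488768-93519304 (+), Sds at chr5:120476526-120483932 (+) and Gls2 at chr10:128194457-128210004 (+). Promoter sequence, from 250 bases before to 50 bases after the RefSeq start, was matched for 5 of the 9. The 4 shown belong to genes called together, Otc and Ass1 in Mgmt-/- livers at Day 1 and Pck1 and G6pc in WT livers at Day 2. All read 5′ to 3′ on the + strand of GRCm38.p6, and capitals mark motif matches.
Otc (chrX:10252055-10252354): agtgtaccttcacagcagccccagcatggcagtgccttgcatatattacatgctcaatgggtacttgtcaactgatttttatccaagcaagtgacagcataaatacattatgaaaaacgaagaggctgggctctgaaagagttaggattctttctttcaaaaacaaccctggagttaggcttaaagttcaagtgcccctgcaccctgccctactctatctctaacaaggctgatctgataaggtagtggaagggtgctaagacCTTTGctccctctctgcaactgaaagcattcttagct
Ass1 (chr2:31470020-31470319): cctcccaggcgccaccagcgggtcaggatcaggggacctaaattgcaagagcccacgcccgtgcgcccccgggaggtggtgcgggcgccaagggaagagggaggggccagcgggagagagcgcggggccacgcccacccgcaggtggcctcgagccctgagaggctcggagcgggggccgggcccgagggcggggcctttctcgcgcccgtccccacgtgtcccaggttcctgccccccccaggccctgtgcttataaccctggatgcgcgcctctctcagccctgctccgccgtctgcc
Pck1 (chr2:173152823-173153122): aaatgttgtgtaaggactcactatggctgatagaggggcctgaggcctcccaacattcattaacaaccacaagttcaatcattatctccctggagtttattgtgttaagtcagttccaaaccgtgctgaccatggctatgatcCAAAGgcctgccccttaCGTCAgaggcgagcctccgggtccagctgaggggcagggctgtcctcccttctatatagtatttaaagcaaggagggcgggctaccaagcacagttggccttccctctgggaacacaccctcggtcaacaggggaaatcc
G6pc (chr11:101367466-101367765): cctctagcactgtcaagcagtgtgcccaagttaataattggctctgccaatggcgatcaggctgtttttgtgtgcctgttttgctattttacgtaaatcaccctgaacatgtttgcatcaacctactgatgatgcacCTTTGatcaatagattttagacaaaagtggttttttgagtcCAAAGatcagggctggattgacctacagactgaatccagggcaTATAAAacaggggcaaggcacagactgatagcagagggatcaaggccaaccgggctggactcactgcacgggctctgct

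Both strands were searched for TGACGTCA, the cAMP response element. Its core TGACG was searched on its own, so that a full element also counts as a core. TTGCNNAA stood for the C/EBP element. CAAAGTCCA was taken as the HNF4 element, and it overlaps its core, CAAAG. For the TATA box the letters were TATAAA, and the glucocorticoid receptor element was searched by its usual letters. Of these 5 promoters, only Pck1 held TGACG, read as CGTCA from -90 to -86, a core present in 20.8% of 32851 promoters of the same length. CAAAG, in 53.9% of all promoters, was found in Otc, Pck1, G6pc and Hal, at 2 places in each of G6pc and Hal. TATAAA, in 13.6%, stood at -29 in G6pc and, on the opposite strand, at -28 in Hal, and TTGCNNAA, in 10.8%, was matched by TTGCTCAA at -150 in Hal. TGACGTCA (1.79%), CAAAGTCCA (0.475%) and the glucocorticoid receptor element (0.475%) matched none of the 5. The Ass1 promoter held none of these letters and was 74% G and C, against a median of 52.7% over all promoters and 44.3% for Otc. A match is a run of letters and was not tested as a bound site.

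Across 9 members and 10 NDMA comparisons, 8 of 90 differences were called, 7 of them lower and 1 higher after NDMA. Of all genes tested, 9.19%, 6.23%, 3.61%, 0.0249% and 0% were called in WT and 17.7%, 19.9%, 17.8%, 11.2% and 7.74% in Mgmt-/-, in time order. The members' 8 calls fell within the first 5 days, on 6 of the enzymes: Cps1 3 times, and Otc, Ass1, Pck1, G6pc and Hal once each. Asl, Sds and Gls2 were never called by limma in these 10 comparisons. Calls of them by edgeR or DESeq2 in Mgmt-/- after Day 1 are given below. The question behind each comparison is how NDMA changes the liver transcriptome in each genotype as time passes.

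**Figure D1:**
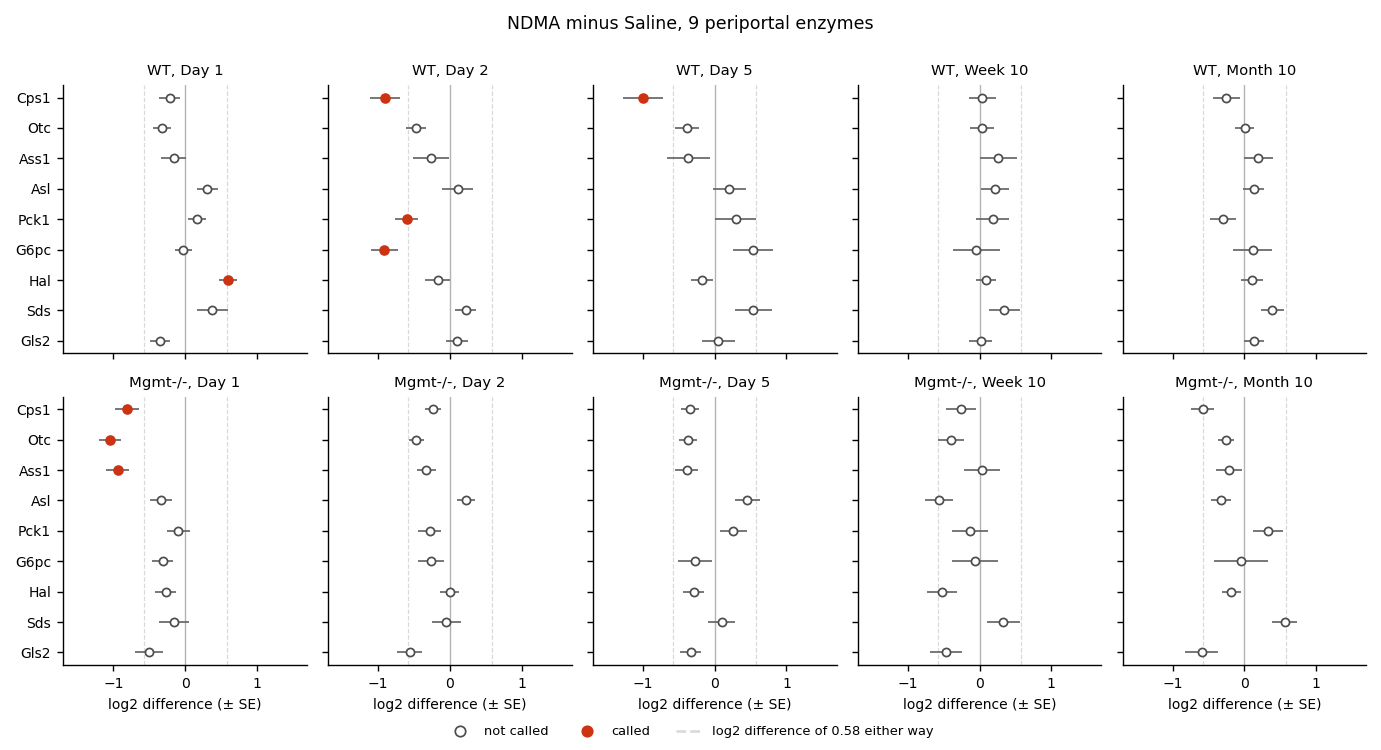
NDMA minus Saline in log2(normalized count + 1) with standard errors for the 9 enzymes, by genotype (rows) and collection (columns), where filled points are called. Filled points appear in 4 of the 10 panels, all lower except Hal in WT livers at Day 1.

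The first 3 enzymes of the urea cycle were lower in Mgmt-/- livers 1 day after NDMA. Cps1, which makes carbamoyl phosphate and sets the entry of ammonia into the cycle, ran from 1996 through a median of 3244 to 5385 normalized counts in 12 Saline mice and from 1030.1 through 1829 to 2988 in 12 NDMA mice. Otc, which joins carbamoyl phosphate to ornithine, ran from 963 through 1662 to 1873 in Saline mice and from 364 through 909.7 to 1347 in NDMA mice. Ass1, which condenses citrulline with aspartate, ran from 1802 through 2572 to 5276 in Saline mice and from 748 through 1649.9 to 2529 in NDMA mice. For each of the 3 genes, all 12 NDMA mice lay under the Saline median and 7 of 12 lay under the lowest Saline mouse, while the other 5 lay within the Saline range.

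The differences in log2 were -0.81 ± 0.17 for Cps1 (limma adjusted p = 0.000267), -1.04 ± 0.15 for Otc (adjusted p = 2.1e-06) and -0.94 ± 0.16 for Ass1 (adjusted p = 2.2e-05), or 0.569, 0.486 and 0.520 of the Saline level. These 3 members of 9 stand beside 17.7% of 10055 genes called in this comparison, 8.64% lower and 9.06% higher. After scaling all libraries to equal totals, 76.2% of the genes called were higher in place of 51.2%, and the same 3 members were called. Asl, which splits argininosuccinate, was at -0.34 ± 0.15 (adjusted p = 0.0925). The median over the 9 members was -0.336 and all 9 were negative, against a median of 0.016 over all genes tested.

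Mgmt-/- Day 1 came from 2 batches. In 191212Eng alone (8 mice each) the log2 differences were -0.85 for Cps1 and -0.92 for Otc, both called, and in 200803Eng alone (4 mice each) they were -0.73 (adjusted p = 0.0563) and -1.28 (adjusted p = 0.0617). Ass1 was called in each batch, at -0.91 and -1.01.

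**Figure D2:**
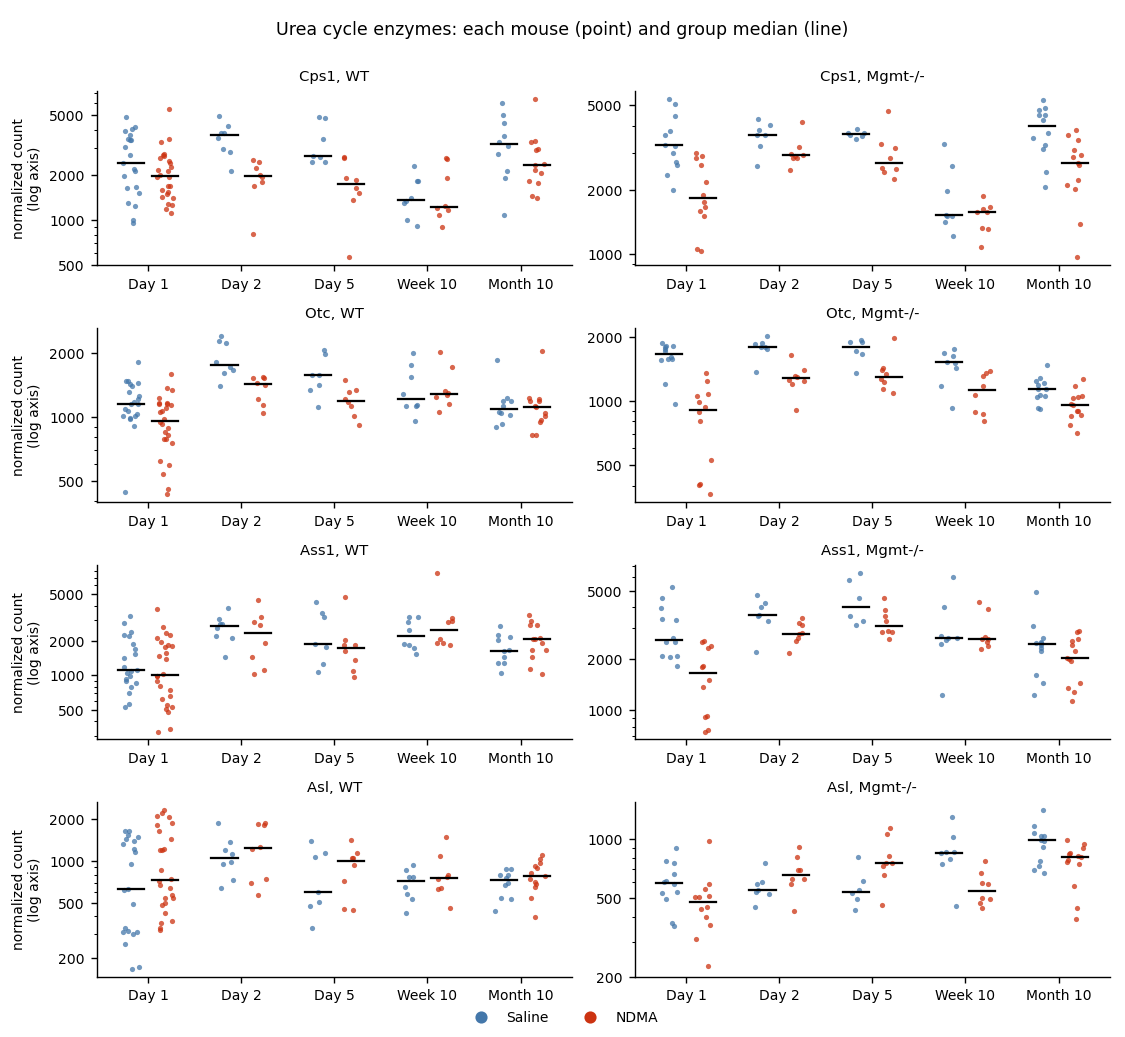
Normalized count (log axis) of 4 urea cycle enzymes in every retained mouse, by genotype and collection, with Saline in blue, NDMA in red and a line at each group median. At Day 1 in Mgmt-/- all 12 NDMA points lie under the Saline median line for Cps1, Otc and Ass1.

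The genotypes were not shown to differ at that time. A genotype by treatment term, tested with edgeR on reads recovered from the values (adjusted p under 0.05 with no limit on size), was called for 0 of the 9 members at Day 1, beside 0.00951% of 10519 genes. Mgmt-/- minus WT came to -0.56 for Cps1 (adjusted p = 0.401), -0.66 for Otc (adjusted p = 0.226), -0.72 for Ass1 (adjusted p = 0.306) and -0.81 for Hal (adjusted p = 0.0892), and 5 of the 9 had an unadjusted p under 0.05. All 9 estimates were negative, with a median of -0.565 against -0.014 over all genes.

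In WT livers the lower levels of Cps1 were called at Day 2 and Day 5. At Day 2, Cps1 ran from 2106 through 3660.1 to 4917 in 8 Saline mice and from 809.9 through 1972 to 2496 in 8 NDMA mice. All 8 NDMA mice were under the Saline median and 5 under the lowest Saline mouse. The difference was -0.90 ± 0.21 in log2 (limma adjusted p = 0.0110), or 0.536 of the Saline level. At Day 5 the range was 2440.1 to 4867 around a median of 2677 in 7 Saline mice and 566 to 2647 around 1737 in 8 NDMA mice, 6 of which lay under every Saline mouse.

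That Day 5 difference, -1.002 ± 0.28 (adjusted p = 0.0486), was at the edge of the threshold. Leaving out single mice gave -1.14 to -0.77, and the call was lost in 10 of those 15 fits. It was called in the male batch alone (-1.33), where Ass1 was also lower (-0.99) and G6pc higher (0.80), and not in the female batch alone (-0.72, adjusted p = 0.786). Cps1 was 1 of 9 members called at Day 5, beside 3.61% of 8654 genes, 1.39% called lower and 2.22% higher. Without the library of under 300000 reads, Ass1 was called as well (-0.67, adjusted p = 0.0084).

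Pck1 and G6pc were called lower in WT livers at Day 2. G6pc, which releases free glucose from glucose-6-phosphate, ran from 313 through 517 to 803 in 8 Saline mice and from 200.2 through 280.1 to 381 in 8 NDMA mice. All 8 NDMA mice were under the Saline median and 6 under every Saline mouse. Its difference was -0.92 ± 0.19 in log2 (limma adjusted p = 0.00483), or 0.530 of the Saline level. Pck1, which makes phosphoenolpyruvate from oxaloacetate, ran from 1229.6 through 1416 to 2874 in Saline mice and from 768 through 945 to 1644 in NDMA mice.

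For Pck1, 5 of 8 NDMA mice lay under every Saline mouse while the other 3 lay above the Saline median. The difference, -0.61 ± 0.16 (adjusted p = 0.0257), was lost as a call without sex and batch terms (adjusted p = 0.110) and without the library of under 300000 reads (-0.48). It was also lost with edgeR (-0.59, adjusted p = 0.0863), a fit that held only 5 of the 8 Saline mice, since 3 libraries of that group gave no whole reads, so the tool and the missing mice cannot be told apart. The 3 members called at Day 2 (Cps1, Pck1 and G6pc) stand beside 6.23% of 8568 genes, 2.91% called lower and 3.33% higher. In the male batch alone Cps1 (-0.66) and G6pc (-1.03) were called. In the female batch alone 0 members were called by limma, with Cps1 at -1.14 (adjusted p = 0.340) and G6pc at -0.80 (adjusted p = 0.362). At Day 5 the WT values of G6pc turned the other way in sign, 0.53 ± 0.28 (adjusted p = 0.324), and Pck1 stood at 0.29 ± 0.28 (adjusted p = 0.633).

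In Mgmt-/- livers at Day 2, G6pc was at -0.27 ± 0.18 (adjusted p = 0.325) and Pck1 at -0.28 ± 0.16 (adjusted p = 0.226), and the genotype terms were 0.57 (adjusted p = 0.274) and 0.29 (adjusted p = 0.650). Neither was called at any time in that genotype. A difference between the genotypes was thus not shown for either gene.

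**Figure D3:**
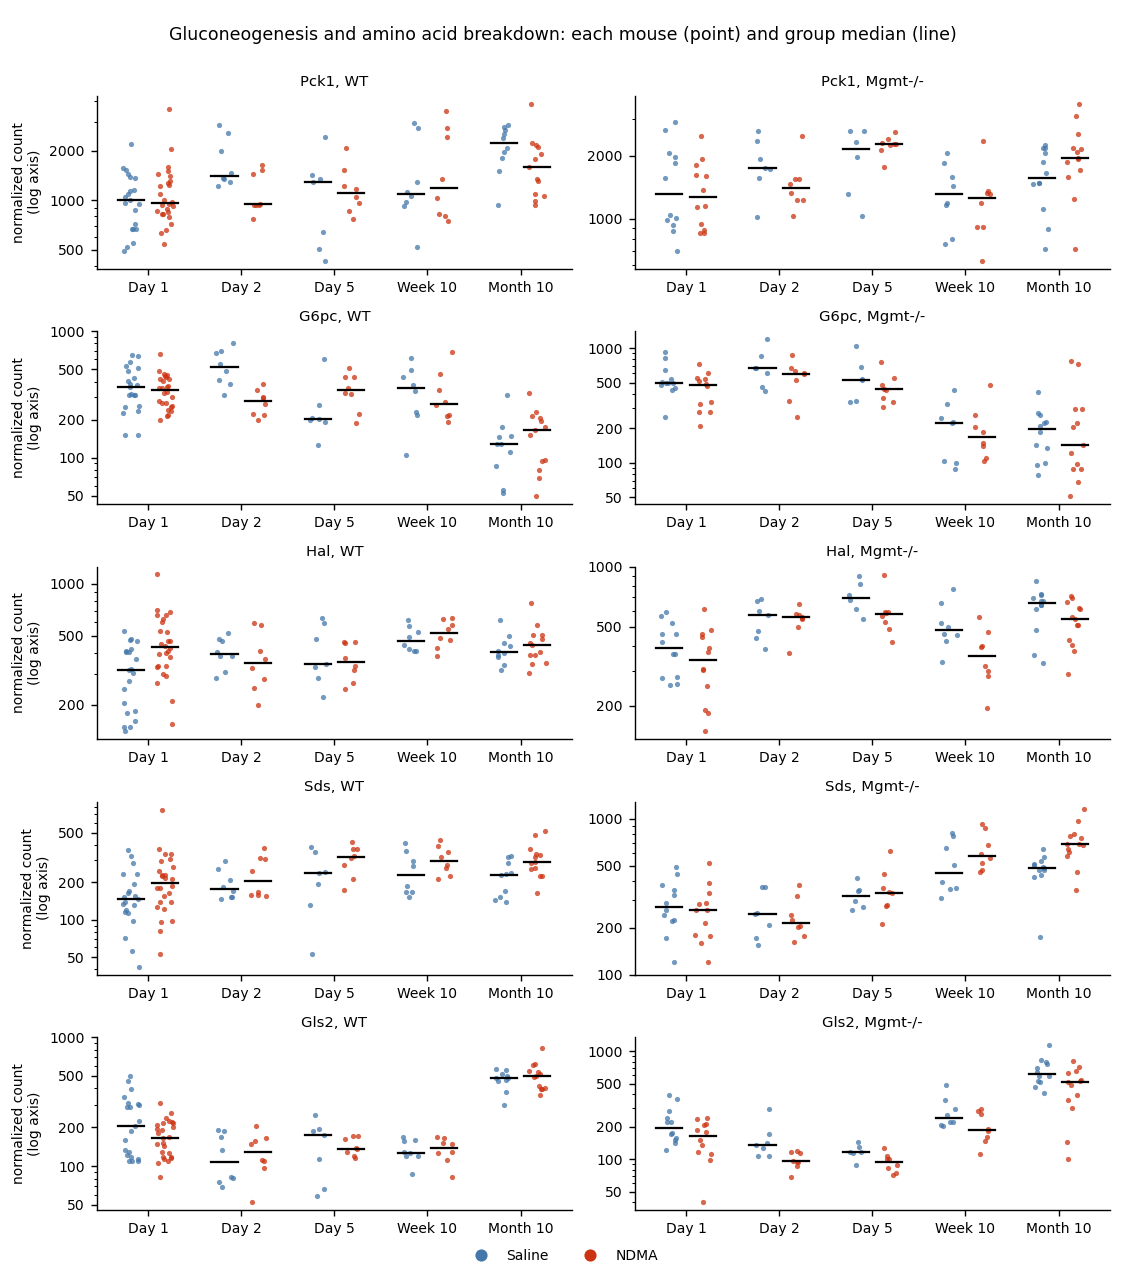
Normalized count (log axis) of Pck1, G6pc, Hal, Sds and Gls2 in every retained mouse, by genotype and collection, with Saline in blue, NDMA in red and a line at each group median. G6pc in WT livers at Day 2 shows NDMA mice from 200.2 to 381 against Saline mice from 313 to 803, and Gls2 is highest at Month 10 in both genotypes.

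Hal, which opens histidine breakdown by removing ammonia from it, was the single member called higher. In WT livers at Day 1 it ran from 140.4 through 319 to 534 normalized counts in 21 Saline mice and from 156 through 432 to 1134 in 26 NDMA mice. The NDMA group exceeded the Saline median in 21 mice and every Saline mouse in 8. The difference was 0.60 ± 0.13 in log2 (limma adjusted p = 0.000416), a ratio of 1.52, as 1 of 9 members beside 9.19% of 9028 genes called and 5.01% called higher.

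The 3 batches at that time differed in level and in the size of the Hal difference. Saline medians of Hal were 245 in 191212Eng, 176 in 200803Eng and 408 in 210901Eng, and the differences were 1.06 (adjusted p = 0.0146), 0.49 (adjusted p = 1.00) and 0.33 (adjusted p = 0.139). In 210901Eng alone Cps1 (-0.74, adjusted p = 0.0024) and Gls2 (-0.93, adjusted p = 0.00054) were called lower instead, whereas in 191212Eng they stood at 0.38 and 0.10. Without the 2 libraries whose sex-linked transcripts went against their labels, Hal was at 0.60 (adjusted p = 0.00045).

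Asl, too, differed between batches: its Saline medians at Day 1 were 303 in 191212Eng, 559 in 200803Eng and 1433 in 210901Eng. The lowest Saline mouse of 210901Eng (1169.7) was above the highest of the other batches (957). Asl was at 0.31 ± 0.15 over all batches (adjusted p = 0.140).

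Sds, which deaminates serine to pyruvate, was not called at any time by limma. Its Mgmt-/- values at Month 10 ran from 175 through 485 to 639 in 12 Saline mice and from 349 through 683 to 1145 in 13 NDMA mice. The NDMA group exceeded the Saline median in 11 mice and every Saline mouse in 8, a difference of 0.56 ± 0.17 in log2 (adjusted p = 0.0363) that passed the p threshold but not the size threshold. In WT at that time Sds was at 0.39 ± 0.16 (adjusted p = 0.554).

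Gls2 is the liver glutaminase that frees ammonia from glutamine for the urea cycle. It was the only member with a called genotype by treatment term, at Day 2, when the genotypes shared no batch. At Day 2 it ran from 106 through 135 to 289 in 7 Mgmt-/- Saline mice and from 68.3 through 95.8 to 119.7 in 8 Mgmt-/- NDMA mice. All 8 NDMA mice were under the Saline median and 5 under every Saline mouse. In WT the 8 Saline mice ran from 68.5 through 107 to 192 and the 8 NDMA mice from 52.6 through 129 to 204. Of these NDMA mice 6 lay above the Saline median, with 1 above every Saline mouse and 1 under every Saline mouse.

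The NDMA difference of Gls2 was -0.56 ± 0.17 in Mgmt-/- (adjusted p = 0.0186, under the size threshold) and 0.10 ± 0.16 in WT (adjusted p = 0.781). The term for Mgmt-/- minus WT was -0.88 (edgeR adjusted p = 0.0454), 1 of 9 members beside 3.86% of 9617 genes, and without a batch term its adjusted p was 0.0806. That fit held 28 mice, with 5 of the 8 WT Saline mice, because 3 of the 4 libraries that gave no whole reads belong to that group. Every Mgmt-/- mouse in the fit came from 191212Eng, and every WT mouse from 200710Eng or 200724Eng. Whether the term follows the genotype or the batches was not tested, since no batch held both genotypes. At Day 5, Week 10 and Month 10 edgeR called 0 members for this term, with 0, 2 and 3 members at an unadjusted p under 0.05, beside 2.26%, 5.85% and 1.48% of genes.

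Over the later Mgmt-/- collections no member was called by limma although many genes were. At Day 2, 19.9% of 9469 genes were called (12.4% higher, 7.5% lower) and 0 members (4 at an unadjusted p under 0.05; edgeR and DESeq2 each called 1, Gls2). At Day 5 it was 17.8% of 9306 genes (11.1% higher, 6.71% lower) and 0 members (6 unadjusted; 0 by edgeR and 0 by DESeq2), at Week 10 11.2% of 9681 genes (7.27% higher, 3.88% lower) and 0 members (4 unadjusted; Asl by edgeR and by DESeq2), and at Month 10 7.74% of 10066 genes (4.75% higher, 2.99% lower) and 0 members (5 unadjusted; 0 by edgeR, Sds by DESeq2).

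Otc was also under Saline in sign at the later collections of Mgmt-/-. After Day 1 its differences were -0.47 ± 0.11 at Day 2 (adjusted p = 0.00153), -0.37 ± 0.12 at Day 5 (adjusted p = 0.0302), -0.40 ± 0.19 at Week 10 (adjusted p = 0.193) and -0.26 ± 0.11 at Month 10 (adjusted p = 0.155), none beyond 0.58. In WT, Otc was at -0.32 ± 0.13 at Day 1 (adjusted p = 0.0622), -0.47 ± 0.14 at Day 2 (adjusted p = 0.0406) and -0.39 ± 0.17 at Day 5 (adjusted p = 0.210), and at 0.04 ± 0.17 at Week 10 and 0.0026 ± 0.14 at Month 10. At Day 2 and Day 5 all 8 WT NDMA mice lay under the Saline median. Cps1 at Month 10 ran from 2067 through 3986 to 5288 in 12 Saline mice and from 964 through 2679.5 to 3839.5 in 13 NDMA mice, all 13 of them under the Saline median. That difference of -0.58 ± 0.16 (adjusted p = 0.0185) stopped just short of the size threshold.

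Asl at Day 5 in Mgmt-/- lay the other way. Asl was at 0.46 ± 0.18 at Day 5 (adjusted p = 0.0687) and at -0.56 ± 0.20 at Week 10 (adjusted p = 0.0636). The member median was -0.265, -0.295, -0.259 and -0.216 at Day 2, Day 5, Week 10 and Month 10, against 0.031, 0.025, 0.040 and -0.006 over all genes.

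In WT livers the member differences were small by Week 10 and Month 10. No member was called at Week 10 (0 with an unadjusted p under 0.05, and 0 by edgeR or DESeq2), beside 0.0249% of 8048 genes. At Month 10 limma, edgeR and DESeq2 each called 0 members, Sds alone had an unadjusted p under 0.05, and 0% of 9254 genes were called with 757 at an unadjusted p under 0.05. The member medians were 0.090 and 0.116, against -0.035 and -0.060 over all genes, and at Day 1, Day 2 and Day 5 they were -0.025, -0.268 and 0.050 against -0.025, -0.076 and -0.073.

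Among 14 partners of the urea cycle (transport, ammonia and ornithine supply, glutamine cycling), 13 were tested. In Mgmt-/- livers 5, 4, 4, 5 and 3 of them were lower at the 5 collections in time order, and 1, Slc7a2, was higher at Day 5. In WT 3, 4 and 3 were lower at the first 3 times and none later by limma. Their Mgmt-/- medians at Day 1 and Day 2 were -0.493 and -0.369 in log2, against 0.016 and 0.031 over all genes. Of all genes tested, 8.64%, 7.5%, 6.71%, 3.88% and 2.99% were called lower in Mgmt-/- in time order, and 11.1% higher at Day 5. In WT 4.19%, 2.91% and 1.39% were called lower at the first 3 times.

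Oat, which degrades ornithine, fell from a median of 392 (248 to 603) in 12 Saline mice to 78.3 (23.5 to 354) in 12 NDMA mice of Mgmt-/- at Day 1. That was a difference of -2.32 ± 0.28 (adjusted p = 8.2e-07), and Oat was called lower in 8 of the 10 comparisons. Car5a, the mitochondrial carbonic anhydrase that supplies bicarbonate to Cps1, was lower in 6, at -2.64 ± 0.30 in Mgmt-/- at Day 1 (adjusted p = 1.6e-07). Glul, glutamine synthetase, was lower in 7 (-2.44 ± 0.15 in Mgmt-/- at Day 1, adjusted p = 7.1e-16), and Slc38a3, a glutamine transporter, in 3. Oat and Glul are also counted among the pericentral markers below.

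Of 16 partners in gluconeogenesis, 14 were tested at each Mgmt-/- collection except Day 5, where 15 were. Of all genes, 17.7%, 19.9%, 17.8%, 11.2% and 7.74% were called there in time order. In WT at Day 1 and Day 2 it was 9.19% and 6.23% of all genes, with 14 partners tested. In Mgmt-/-, Gpi1 was higher at Day 1, Gpi1 and Tpi1 at Day 2 and Gpi1, Tpi1 and G6pc3 at Day 5, while Gpd1 was lower at Day 2 and none was called later. In WT, Gpi1 was higher at Day 1 and Slc2a2 lower at Day 2. Gpi1 and Tpi1, which work in both directions between glucose and pyruvate, reached 0.87 ± 0.13 (adjusted p = 1.1e-05) and 0.64 ± 0.11 (adjusted p = 4.9e-05) in Mgmt-/- at Day 2.

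Of 6 enzymes of glycolysis and pyruvate use, 3 were called higher or lower more than once in Mgmt-/- livers. There 6, 4, 4, 6 and 6 were tested in time order, beside 17.7%, 19.9%, 17.8%, 11.2% and 7.74% of all genes called. Pfkfb1 was lower in Mgmt-/- at Day 1 and in WT at Day 5. In Mgmt-/-, Pfkl was lower at Day 5 and Pdk4 higher at Week 10. Pklr, the liver pyruvate kinase, was lower from Day 2 to Month 10 in Mgmt-/-, by -1.61 ± 0.20 at Day 5. Pkm, its form in most other cells, was higher from Day 1 to Week 10 in Mgmt-/-, by 1.04 ± 0.18 at Day 1 and 1.66 ± 0.29 at Week 10, and Hk2 was higher at Week 10 and Month 10.

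Partners in amino acid breakdown were mostly lower where they were called: 5, 4, 6, 2 and 0 of 15 in Mgmt-/- and 2, 2 and 3 of 15 in WT at the first 3 times, with 1, Sdsl, higher at Day 1 in each genotype. Prodh, proline dehydrogenase, was lower in 7 comparisons, by -3.34 ± 0.47 in Mgmt-/- at Day 2 (adjusted p = 4.7e-05). Prodh2, hydroxyproline dehydrogenase, was lower in 6, Agxt, which detoxifies glyoxylate, in 4 and Hpd, which acts in tyrosine breakdown, in 3. Of all genes tested, 8.64%, 7.5%, 6.71%, 3.88% and 2.99% were called lower in Mgmt-/- in time order. In WT it was 4.19%, 2.91% and 1.39% at the first 3 times. At Day 1, 9.06% were called higher in Mgmt-/- and 5.01% in WT.

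Of 24 hormone receptors, hormone targets and transcription factors linked to these enzymes, limma called none in WT at any time. In Mgmt-/-, Tsc22d3, a glucocorticoid-induced gene, was lower at Day 1 (-0.79 ± 0.18, adjusted p = 0.00125), Day 2 and Day 5. Ppara was lower at Day 1, Day 2 and Week 10, Gcgr, the glucagon receptor, at Day 5 and Week 10, and Igfbp1, an insulin-repressed secreted protein, was higher at Week 10 (1.60 ± 0.31, adjusted p = 0.000951). The counts in Mgmt-/- were 1 higher and 2 lower, 0 and 4, 1 and 2, 1 and 3, and 0 and 0, in time order. There 24, 24, 22, 23 and 24 were tested, beside 17.7%, 19.9%, 17.8%, 11.2% and 7.74% of all genes called. In WT the shares of all genes were 9.19%, 6.23%, 3.61%, 0.0249% and 0%.

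Markers of the lobule's zones moved apart. Of 9 other periportal markers, 5, 5, 4, 2 and 4 were higher in Mgmt-/- in time order and none lower. In WT 6 were higher at Day 1 and 1 at Day 2. Of all genes tested, 9.06%, 12.4%, 11.1%, 7.27% and 4.75% were called higher in Mgmt-/- in time order. In WT it was 5.01% at Day 1 and 3.33% at Day 2. Hsd17b13, a lipid droplet protein, was higher at all 5 times in Mgmt-/-, by 0.75 ± 0.13 at Day 1 and 1.37 ± 0.14 at Day 5. Pigr, the receptor that carries IgA into bile, was higher at the first 3 times (1.89 ± 0.34 at Day 2), Aldh1b1 at all 5, and Cyp2f2 at Day 1 and Month 10. Their summed level in Mgmt-/- at Day 1 had a median of 6829.9 (3183 to 8752) in Saline and 8266 (3200 to 10401) in NDMA mice, with Apof the most abundant and none at 0 throughout.

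Of the pericentral markers tested, 12 of 13, 11 of 12, 10 of 12, 6 of 12 and 7 of 14 were lower in Mgmt-/- in time order, and 11 of 12, 10 of 12 and 9 of 12 in WT at the first 3 times, while Aldh1a1 was higher at Day 1 in both genotypes and at Day 5 in Mgmt-/-. Their summed level in Mgmt-/- at Day 1 had a median of 12079 (6837 to 16384) in 12 Saline mice and 1906 (1418 to 6256) in 12 NDMA mice, and the groups did not overlap. In WT at Day 2 the sum was 15298 (4122 to 17933) in Saline and 3701 (1904 to 5285) in NDMA mice. Cyp2e1, which activates NDMA, was the most abundant in Saline livers and was lower by -3.76 ± 0.35 in Mgmt-/- at Day 1 (adjusted p = 4.7e-08). Median log2 differences at that time were -1.989 for the pericentral list, 0.704 for the other periportal markers and -0.336 for the 9 enzymes. Over all genes the median was 0.016. Of all genes tested, 8.64%, 7.5%, 6.71%, 3.88% and 2.99% were called lower in Mgmt-/- in time order. In WT it was 4.19%, 2.91% and 1.39% at the first 3 times.

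Some general hepatocyte markers were lower beside the 3 urea cycle enzymes. In Mgmt-/- at Day 1, 4 of 8 were called lower (Alb, Apoa1, Serpina1c and Trf) and none higher, with 2 of 8 above 0 in sign and a median of -0.650. Their sum had a median of 358021 (184581 to 529862) in Saline and 235535 (129986 to 294634) in NDMA mice. Alb, serum albumin and the most abundant of them, was at -0.82 ± 0.14 (adjusted p = 1.1e-05), a difference of the size of that of Cps1. In WT at Day 2, when Cps1, Pck1 and G6pc were called, 1 of the 8 was higher and 1 lower, Alb, at -0.92 ± 0.15 (adjusted p = 0.000979). Of all genes tested, 8.64% were called lower and 9.06% higher in Mgmt-/- at Day 1. In WT at Day 2 it was 2.91% lower and 3.33% higher.

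Other cell types were read at the same times. In Mgmt-/- at Day 1 the markers called higher and lower were 1 and 0 of 2 tested for T cells, 2 and 3 of 8 for macrophages, 0 and 1 of 2 for cholangiocytes, 1 and 4 of 6 for stellate cells and fibroblasts, 1 and 2 of 5 for endothelial cells and 0 and 4 of 4 for erythroid precursors. In WT at Day 2 they were 1 and 0 of 2, 2 and 2 of 8, 0 and 0 of 1, 1 and 1 of 6, 0 and 0 of 5 and 0 and 0 of 4 in the same order, by limma. Of all genes tested, 9.06% were called higher and 8.64% lower in Mgmt-/- at Day 1, and 3.33% and 2.91% in WT at Day 2. Erythroid markers, led by Hbb-bs, summed to a median of 30321 (14207 to 49011) in Mgmt-/- Saline and 17368 (9577 to 30901) in NDMA mice at Day 1. No kidney marker passed the filter in the retained libraries. The part of these lists in the differences of the 9 enzymes was not tested.

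**Figure D4:**
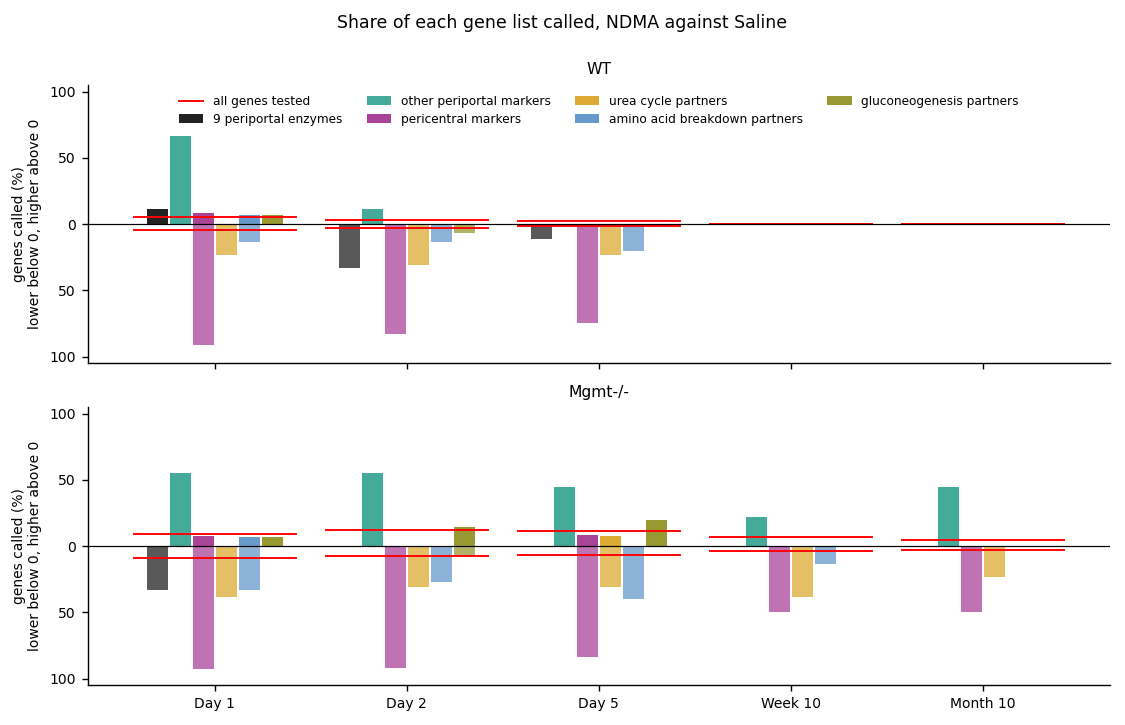
Percent of the tested genes of 6 lists (the 9 enzymes, other periportal and pericentral markers, and partners in the urea cycle, amino acid breakdown and gluconeogenesis) called higher (above 0) and lower (below 0) after NDMA, by genotype and collection, with red lines for all genes tested. Among these 6 lists, which leave out the markers of other cell types, the pericentral bars reach furthest down in both genotypes at the first 3 times, and the 9 enzymes show bars at Day 1, Day 2 and Day 5 in WT and only at Day 1 in Mgmt-/-.

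Saline livers were then compared across ages, within genotype and with sex and batch as terms. The 9 enzymes did not share 1 course. Between Day 2 and Day 5 limma called 0 members in WT (3 at an unadjusted p under 0.05, and 0 by edgeR), beside 0.906% of 9050 genes. It called 0 in Mgmt-/- as well (1 at an unadjusted p under 0.05, and 0 by edgeR), beside 0% of 9885 genes, 479 of which had an unadjusted p under 0.05. G6pc in WT was at -1.15 ± 0.31 between these days (adjusted p = 0.0526).

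Gls2 had the largest rise of the 9 in both comparisons that ended at Month 10. In WT Saline mice it ran from 86.8 through 127 to 168 normalized counts at Week 10 (8 mice) and from 298 through 485 to 562 at Month 10 (10 mice), and the groups did not overlap. In Mgmt-/- it ran from 204 through 239.6 to 489 at Week 10 (8 mice) and from 411 through 611 to 1139.8 at Month 10 (12 mice), and the groups overlapped slightly. The log2 differences, Month 10 minus Week 10, were 1.82 ± 0.20 in WT (adjusted p = 2.2e-11) and 1.25 ± 0.19 in Mgmt-/- (adjusted p = 3.5e-07). Within single batches they were 1.51 and 2.01 in WT and 1.25 in Mgmt-/-. In the same comparison 61% of all genes were called in WT (39.8% higher) and 51% in Mgmt-/- (31% higher). How many other genes had groups that did not overlap was not counted.

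Cps1 dipped at Week 10 in WT. It ran from 2106 through 3660.1 to 4917 at Day 2, from 918 through 1369 to 2307 at Week 10 and from 1073 through 3219.9 to 6010.3 at Month 10. The highest Week 10 mice reached the lowest Day 2 mice, and Month 10 overlapped with both. The difference was -1.26 ± 0.23 from Day 2 to Week 10 (adjusted p = 3.1e-05) and 1.00 ± 0.24 from Week 10 to Month 10 (adjusted p = 0.000319). In Mgmt-/- the rise from Week 10 (1209.8 through 1519 to 3279) to Month 10 (2067 through 3986 to 5288) was 1.05 ± 0.17 (adjusted p = 8.2e-07), while the Week 10 minus Day 2 difference, which joins different batches through Day 1 only, was -0.56 ± 0.29 (adjusted p = 0.298).

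Asl was the other member called from Day 2 to Week 10 in WT, at -0.65 ± 0.19 (adjusted p = 0.00652), and was not called by edgeR (-0.55, adjusted p = 0.0849) on 5 of the 8 Day 2 mice, where the tool and the 3 missing mice cannot be told apart. The 2 members called there were both lower, beside 19.5% of 9050 genes, 12.2% called lower and 7.29% higher. In Mgmt-/- limma called 0 (2 at an unadjusted p under 0.05, and 0 by edgeR), beside 6.68% of 9885 genes (2.85% higher, 3.82% lower).

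G6pc and Pck1 parted with age in WT. G6pc fell from a median of 357 (106 to 617) at Week 10 to 128 (53.0 to 315) at Month 10, a difference of -1.38 ± 0.31 (adjusted p = 0.000139). Pck1 rose from 1097 (519.9 to 2941) to 2241 (943 to 2896), a difference of 0.91 ± 0.26 (adjusted p = 0.00242) that edgeR did not call (0.48, adjusted p = 0.121). Within batches the Pck1 difference was 1.55 and 0.38 and that of G6pc -1.13 and -1.55. In Mgmt-/- Pck1 and G6pc stood at 0.25 ± 0.23 and -0.09 ± 0.28 between these ages, and neither was called.

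Between Day 1 and Month 10, Pck1, Hal and Gls2 were called higher in both genotypes. The WT and Mgmt-/- differences were 1.35 ± 0.39 and 0.74 ± 0.29 for Pck1 (adjusted p = 0.00351 and 0.0262), 1.11 ± 0.28 and 1.15 ± 0.20 for Hal (0.000721 and 2.6e-06), and 1.81 ± 0.30 and 1.32 ± 0.24 for Gls2 (1.4e-06 and 8.1e-06). Hal went from 392 (255 to 589) to 657 (328 to 847) in Mgmt-/-. In the 1 batch with both ages (200803Eng), Pck1 was at 1.35 and 0.74, Hal at 1.12 and 1.16 and Gls2 at 1.79 and 1.32. That batch held 3 Month 10 and 4 Day 1 mice in WT, and 12 and 4 in Mgmt-/-. Without sex and batch terms, Hal in WT (0.54) and Pck1 in Mgmt-/- (0.12, limma adjusted p = 0.624) lost their calls. Pck1 in WT, Hal in Mgmt-/- and Gls2 in both genotypes kept theirs.

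Cps1 was called in WT alone (1.09 ± 0.36, adjusted p = 0.0101), at 0.37 without sex and batch terms (adjusted p = 0.146), and G6pc in Mgmt-/- alone (-1.19 ± 0.35, adjusted p = 0.00451), where it went from 499 (251 to 921) to 196 (77.6 to 415). Whether the genotypes differ in these was not tested. The 4 members called in each genotype stand beside 48.8% of 9050 genes in WT (27.7% higher, 21.1% lower) and 51.1% of 9885 in Mgmt-/- (26.6% higher, 24.5% lower).

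From Week 10 to Month 10, 4 members were called in WT beside 61% of genes (39.8% higher, 21.2% lower), and 2, Cps1 and Gls2, in Mgmt-/- beside 51% (31% higher, 20% lower). After scaling all libraries to equal totals, 4 were called in Mgmt-/-, and that scaling moved the median of all genes there from 0.18 to 0.56.

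**Figure D5:**
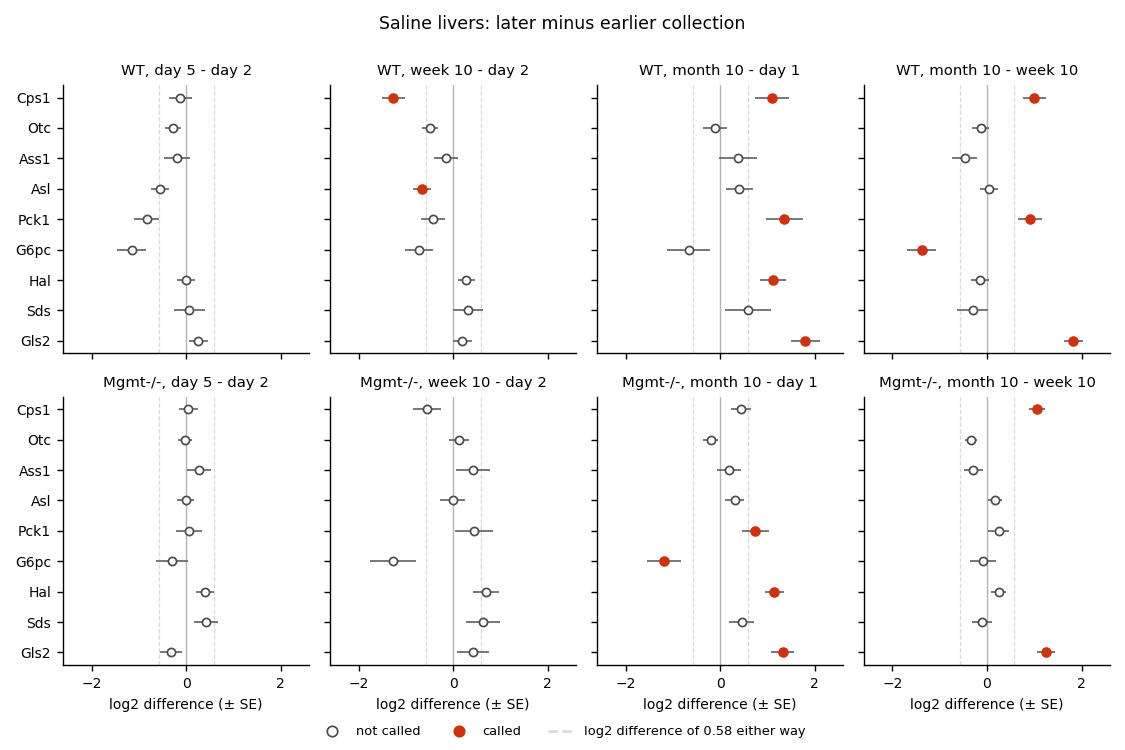
Difference in log2(normalized count + 1) between collections of Saline mice, later minus earlier, with standard errors, for the 9 enzymes in WT (top) and Mgmt-/- (bottom), where filled points are called. Gls2 is called higher in the 4 panels that involve Month 10, and G6pc is called lower in 1 of them per genotype.

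Both comparisons that ended at Month 10 called a large share of all genes, and the pathways' other members are given beside it. Of 13 urea cycle partners tested, 9 were higher in WT and 8 in Mgmt-/- from Day 1 to Month 10 and none lower, with medians of 1.488 and 0.926 against 0.272 and 0.120 over all genes, of which 27.7% and 26.6% were called higher. From Week 10 to Month 10, 7 were higher and 1, Got1, lower in WT, and 6 were higher and none lower in Mgmt-/-. Of 14 gluconeogenesis partners, 2 were higher and 8 lower from Week 10 to Month 10 in each genotype, where 39.8% and 31% of all genes were called higher and 21.2% and 20% lower in WT and Mgmt-/-. These were the same genes, Pcx and Slc2a2 higher and Eno1, Fbp1, Ldha, Mdh1, Mdh2, Pgk1, Slc37a4 and Tpi1 lower. From Day 1 to Month 10, 3 were higher and 5 lower in each genotype.

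Sex was compared in adult Mgmt-/- Saline mice, where both sexes shared a batch. Male minus female, limma called 0 of the 9 members (1 at an unadjusted p under 0.05), beside 4.2% of 9755 genes. G6pc stood at 0.75 ± 0.26 (adjusted p = 0.118), and at Month 10 alone at 1.09 (adjusted p = 0.00186).

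Among Saline mice of the same group and batch, the members tended to vary together. The Pearson correlation of log2 values, after removing group and batch means, had a median of 0.418 over the 36 gene pairs in WT (-0.166 to 0.867) and 0.262 in Mgmt-/- (-0.397 to 0.707). These points share libraries and their size factors, so the values are a description only.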

How the data were processed

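The files hold 213 liver libraries of 214 labelled samples; 211 were used (117 WT, 94 Mgmt-/-). The authors sequenced transcript 3′ ends, aligned them to GRCm38/mm10 with STAR, counted them with ESAT and divided each library by a DESeq2 size factor, so the deposited values are a normalized signal. The versions and the annotation used are not given in the sources used here. Each genotype's table was normalized separately, so levels set across genotypes are descriptive.

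Values were tested as log2(value + 1) with limma 3.58.1 (R 4.3.3; trend and robust), for genes with a mean of at least 5, with treatment, sex and batch as terms and Benjamini-Hochberg adjustment over all genes. Dividing by the smallest step returned whole reads in 209 of 213 libraries (100.0% of values within 0.01 read); the other 4 (3 WT Saline mice at Day 2 and 1 Mgmt-/- NDMA mouse at Day 1) were left out of tests on reads. These reads were used with edgeR 4.0.16 (quasi-likelihood) for genotype by treatment, and with edgeR and DESeq2 1.42.0 as alternatives. The code was tested on simulated data. Of the 10 members by the rule and the lists' genes, 1 member and some list genes are not reported here, and all counts leave them out. The members, lists and tests were chosen with earlier results of these data known. Partner genes named are those most often called in each list, then those with the largest mean difference. Other genes named behind a small count, and those of the age lists, were chosen after their values were seen. Other alternatives were the pseudocount, filter, covariates, scaling, single batches and leaving out each mouse. Mice were left out singly only where groups held at most 8 mice, so not at Day 1 or Month 10. Promoters came from RefSeq.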

Additional observations from a re-analysis of the deposited data

Results flagged for a closer look

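In 14 of 117 combinations of gene and group of 4 to 10 mice, 1 mouse stood far from the rest of its group by Dixon's test, which chance gives for about 1 in 20. Mgmt-/- NDMA mice hold 7 of them: D389095 at Day 2 for Cps1 (4200.2) and Pck1 (2497), D389090 at Day 5 for Cps1 (4725), Otc (1971.5) and Hal (904), and D209007 at Week 10 for Pck1 (2342) and G6pc (478), each the highest of its group.

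Among Mgmt-/- Saline mice at Day 2, D389006 was the lowest for Otc (1371) and D389035 the highest for Gls2 (289). In WT, NDMA mice D215014 at Day 5 (4747) and D215022 at Week 10 (7680) stood apart for Ass1, and both libraries held under 300000 reads. Saline mice D215011 at Day 5 for G6pc (603.5) and, at Month 10, D215028 for Otc (1858) and D202024 for G6pc (315) were the others.

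The NDMA difference of Gls2 at Day 2 differed between Mgmt-/- and WT mice (-0.88 in log2, edgeR adjusted p = 0.0454). The fit held 5 of the 8 WT Saline mice. Its Mgmt-/- mice were all from 191212Eng and its WT mice from 200710Eng or 200724Eng, so no batch held both. The 2 excluded Mgmt-/- Saline libraries at Day 5 held 6147 and 7562 normalized counts of Kap, against at most 13.9 in the other 94. What set any of these apart was not tested.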

How the results depend on the processing

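No paired analysis was possible because replicate names mark single mice and are not shared between groups. Of 2358 single-gene values under an alternative, 2273 kept their side of the threshold, 44 became called and 41 lost their call, and no called value reversed, while 132 of 2105 values not called changed sign.

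The number of members called after NDMA moved as follows. In WT at Day 1 it was 0 in 200803Eng alone and 2 in 210901Eng alone, against 1. In WT at Day 2, against 3, it was 0 in 200724Eng alone, 2 in 200710Eng alone, without covariates, with equal totals, without libraries of under 300000 reads and with edgeR, and 4 (Otc added) with no fold threshold. The edgeR and DESeq2 fits of WT at Day 2 held 5 of its 8 Saline mice, so for changes there, age comparisons included, the tool and the missing mice cannot be told apart. In WT at Day 5, against 1, it was 0 with a pseudocount of 0.5, with no filter, without covariates, with equal totals and in 200724Eng alone, 2 without libraries of under 300000 reads and 3 in 200710Eng alone. In Mgmt-/- at Day 1 it was 1 in 200803Eng alone, against 3. From 0 in Mgmt-/-, it became 2 at Day 2 and Month 10 and 1 at Day 5 with no fold threshold, 1 at Day 2 (Gls2) and Week 10 (Asl) with edgeR and with DESeq2, 1 at Day 5 with equal totals (Asl, 0.61) and 1 at Month 10 with DESeq2 (Sds).

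Leaving out each mouse gave 2 to 3 members in WT at Day 2, 0 to 2 at Day 5 and 0 to 0 at Week 10, and 0 to 1 in Mgmt-/- at Day 2, 0 to 0 at Day 5 and 0 to 1 at Week 10. Pck1 in WT at Day 2 lost its call without Saline D215001, Saline D215002 or NDMA D215006.

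With age, WT Day 5 minus Day 2 went from 0 to 1 (G6pc) with a pseudocount of 5 and with a mean of at least 20, and WT Week 10 minus Day 2 from 2 to 1 without covariates and with edgeR and to 4 with equal totals. Mgmt-/- Week 10 minus Day 2 went from 0 to 4 without covariates. Keeping the 2 Kap libraries left 2 of 4 for Month 10 minus Day 1 and 0 of 2 for Month 10 minus Week 10, which went from 2 to 4 with equal totals. The genotype term at Day 2 went from 1 to 0 without a batch term, and sex from 0 to 1 (G6pc) at Month 10 alone.

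Equal totals raised the median of all genes to 0.20, 0.20, 0.17 and 0.24 in Mgmt-/- from Day 1 to Week 10, and to 0.52 and 0.75 in WT and 0.35 and 0.56 in Mgmt-/- for Month 10 minus Day 1 and minus Week 10. The share of calls that were higher went from 54.5% to 65.3% and from 53.4% to 68.0% in WT at Day 1 and Day 2, and from 62.2% to 80.3%, 62.4% to 77.9% and 65.2% to 86.8% in Mgmt-/- at Day 2, Day 5 and Week 10. With age it went from 62.2% to 76.2%, 37.5% to 23.2%, 56.7% to 67.6% and 65.2% to 81.0% in WT, in the order given in the report, and from 52.1% to 63.8% and 60.7% to 82.7% in Mgmt-/- for the 2 comparisons that end at Month 10. Apart from the changes that follow from fewer samples or genes, the cause was not tested.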
